A study of Homo sapiens with 6 samples.

Results

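The baseline transcriptome of MDA-MB-231 was described from the 3 control libraries among the 6 libraries of the series. MDA-MB-231 is an established human cell line from a triple-negative breast cancer, a tumour class that lacks the oestrogen receptor, the progesterone receptor and amplified ERBB2. The control cells were plated for 48 h and transfected with an empty vector. The other 3 libraries, from cells given an ABI2 plasmid, were not used here. No untransfected library was analysed, so these levels are those of cells that had been through a transfection. Whether the 3 replicates came from separate cultures is not recorded in the labels, and the spread between them may therefore be technical.

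Breast cancer lines are commonly sorted by the intermediate filaments, adhesion molecules and receptors that they transcribe. Luminal lines keep E-cadherin, the transcription factors GATA3 and FOXA1 and often the oestrogen receptor. Mesenchymal lines make vimentin and the surface proteins CD44 and AXL instead, and genes of other lineages, such as olfactory receptors, are normally shut in both. An abundance of a few very short, strongly transcribed messages is common to nearly all proliferating cells.

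The 3 libraries held 40309690, 39959686 and 38453152 counts over 20260 gene rows. Levels are given as TPM, transcripts per 1e6 transcripts, which divides reads by transcript length and so allows genes to be set beside each other. A gene was called detected at 1 TPM or more in each of the 3 libraries, and 11555 rows, 57% of the table, were detected. A further 4500 rows, 22.2%, had no count in any library. These are called silent below, and 4038 of them were protein-coding genes and 394 were immunoglobulin or T cell receptor segments. The remaining rows comprised 456 at 1 TPM or more in 1 or 2 libraries and 3749 that had a count but stayed below 1 TPM throughout. Just inside the threshold, CDC42EP5 had 1.54, 1.59 and 1.0002 TPM, and just outside it, RAPGEF5 had 1.02, 1.03 and 0.9987 TPM. A count of 0 over all 3 libraries allows a level of up to 0.0253 CPM (counts per 1e6 counts), a floor of 3 counts that covers counting error only.

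All 5 genes chosen as markers of the line were detected. VIM, which encodes the mesenchymal intermediate filament vimentin, had 2930, 2986 and 2915 TPM. AXL, a receptor tyrosine kinase of mesenchymal tumour cells, had 231, 217 and 242 TPM. CD44, the hyaluronan receptor, had 135, 126 and 130 TPM. EGFR, the epidermal growth factor receptor, was the lowest of the markers at 48.0, 45.9 and 48.4 TPM. The ranges of these markers over the 3 libraries did not overlap each other, so their order was the same in each library. ABI2, the gene that the study raised with a plasmid, was present in the control cells at 17.8, 14.8 and 17.6 TPM. ABI2 encodes a subunit of the WAVE complex, which drives actin branching.

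**Figure D1:**
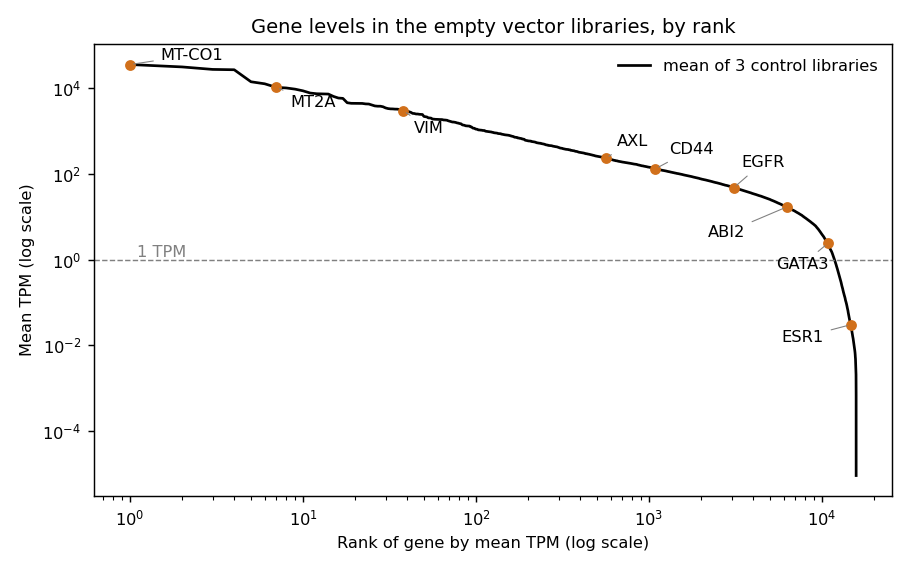
Mean TPM of each gene with a count (y axis, log scale) against its rank (x axis, log scale) over the 3 control libraries, with 9 genes marked. MT-CO1 leads at 34786 TPM, the markers MT2A, VIM, AXL, CD44 and EGFR lie between 10243 and 47.4 TPM, and ESR1 lies near the end of the curve at 0.030 TPM.

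Transcripts were concentrated in few genes. The 100 most abundant genes held 41.6% ± 0.58 (SD, n = 3) of TPM, 207 genes held 50% of it and 3873 genes held 90%. A mean of 1000 TPM or more was reached by 112 genes, which held 42.8% of TPM and 25.3% of the counts. Of these 112 genes, 13 lay in the mitochondrial genome, 50 encoded cytosolic ribosomal proteins and 49 were others. The rank plot shows a nearly straight fall over the leading ranks and a steep drop after 1 TPM.

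The 13 messenger RNAs of the mitochondrial genome, which encode respiratory chain subunits, made up 15.6% ± 0.74 (SD, n = 3) of TPM. The replicates had 15.3%, 16.4% and 15.03%, with replicate 2 the highest. MT-CO1, the largest subunit of cytochrome c oxidase, was the most abundant gene of the table at 34628, 35764 and 33967 TPM. MT-CO3 had 30530, 31447 and 29801 TPM, and its range lay below that of MT-CO1. Levels within the mitochondrial set fell to 2451 TPM for MT-ND6, which encodes a complex I subunit. MT-ATP8 with MT-ATP6, MT-ATP6 with MT-CO3, and MT-ND4L with MT-ND4 overlap on the same strand, and their reads cannot be split with certainty.

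Cytosolic ribosomal protein genes made up another 13.2% ± 0.12 (SD, n = 3) of TPM. Of their 84 measured members 82 were detected, 97.6% against 57% of all rows. Their median was 1122 TPM, against 3.59 TPM over all gene rows. RPS18 led with 7181, 7169 and 7203 TPM, and RPS27, RPL41 and RPL12 followed at means of 4483, 4336 and 4322 TPM. RPL12 hardly differed between libraries, at 4319, 4323 and 4324 TPM. Related pairs were unequal. RPL39 had a mean of 1461 TPM and its copy RPL39L 139 TPM. RPL22 had 361 TPM and RPL22L1 52.6 TPM, while RPL3 had 1594 TPM and its muscle copy RPL3L 0.135 TPM. RPL10L, the testis copy of RPL10, was silent.

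Outside the mitochondrial and ribosomal sets, FTL was the highest gene. FTL encodes the light chain of ferritin, the iron store of the cytosol, and had 26772, 25683 and 27886 TPM. Its partner FTH1, the heavy chain with ferroxidase activity, had 4511, 4533 and 3971 TPM, and the ranges of the chains were far apart. The ferritin chains together held 3.11% ± 0.083 (SD, n = 3) of TPM. Among other iron genes, TFRC, the transferrin receptor, had a mean of 223 TPM ± 25.9 (SD, n = 3), ACO1, an iron-responsive RNA-binding protein, 50.9 TPM and HMOX1, which breaks down haem, 26.8 TPM. STEAP3, an endosomal ferrireductase, had 35.7 TPM, SLC11A2, an iron importer, 23.3 TPM, and IREB2, the second iron-responsive RNA-binding protein, 7.85 TPM. SLC40A1, the only known iron exporter, was below 1 TPM in replicates 1 and 2 and had 1.11 TPM in replicate 3. TF and LTF had traces below 0.2 TPM, and TFR2 and HAMP, genes of the liver's iron sensing, were silent.

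The next genes in order were EEF1A1 at 13808 TPM, TMSB4X at 12390 TPM and MT2A at 10243 TPM. EEF1A1 carries aminoacyl-tRNA to the ribosome, TMSB4X binds actin monomers and MT2A is a metallothionein. GAPDH, at 7152, 6915 and 7360 TPM, overlapped RPS18 in its range. S100A6, a calcium-binding protein, had 6443, 6020 and 6395 TPM. Of the 25 highest genes, 18 overlapped the next gene in order over the 3 libraries, so most of the order within that list was not resolved. By counts not divided by length, 16 of the same 25 genes were among the 25 highest.

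Metallothioneins, small cysteine-rich proteins that bind zinc, copper and cadmium, held 1.37% ± 0.0076 (SD, n = 3) of TPM. Of the 12 measured members 5 were detected, 41.7% against 57% of all rows. MT2A had 10270, 10254 and 10204 TPM and 3 members exceeded 100 TPM. MT1X had 1833, 1850 and 1784 TPM, and MT1E had 1626, 1572 and 1588 TPM, with no overlap between them. By counts not divided by length their order was reversed, with 19601, 19886 and 18389 for MT1X and 26732, 26017 and 25159 for MT1E. MT1A followed at a mean of 26.7 TPM and MT1F at 5.54 TPM. MT1G, MT3, MT1HL1 and MT1H had means of 0.221 TPM or less with at least 1 library at 0, and MT1B, MT1M and MT4 were silent. Metallothionein messages are short and alike, and reads could be exchanged between members.

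The promoters of metallothioneins are printed because members of 1 cluster on chromosome 16 ranged from 10243 TPM to no count. Metallothionein promoters are known for metal response elements, short sites bound by the zinc-sensing factor MTF1. RefSeq promoters were available for 5 of the 12 members, and the 150 bases before the annotated start are given, 5′ to 3′ on the sense strand. Coordinates are those of GRCh38.p14, plus strand: chr16:56608434-56608583 for MT2A, chr16:56682320-56682469 for MT1X, chr16:56669664-56669813 for MT1H, chr16:56651736-56651885 for MT1B and chr16:56564923-56565072 for MT4. Capitals mark TGCNCNC on either strand, the TATA box TATAAA and the GC box GGGCGG on either strand. Neighbouring matches run together where they touch or overlap. TGCNCNC is a looser pattern than the core of the metal response element, so a match need not be such an element.
MT2A: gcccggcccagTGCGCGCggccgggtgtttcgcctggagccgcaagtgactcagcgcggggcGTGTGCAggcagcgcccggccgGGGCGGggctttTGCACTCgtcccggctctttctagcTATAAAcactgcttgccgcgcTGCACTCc
MT1X: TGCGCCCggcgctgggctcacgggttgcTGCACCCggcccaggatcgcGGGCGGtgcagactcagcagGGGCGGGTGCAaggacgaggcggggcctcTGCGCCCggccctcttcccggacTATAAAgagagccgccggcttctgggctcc
MT1H: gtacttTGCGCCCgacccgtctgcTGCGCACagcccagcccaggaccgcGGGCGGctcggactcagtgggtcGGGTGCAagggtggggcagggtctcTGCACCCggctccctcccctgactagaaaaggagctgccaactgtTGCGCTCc
MT1B: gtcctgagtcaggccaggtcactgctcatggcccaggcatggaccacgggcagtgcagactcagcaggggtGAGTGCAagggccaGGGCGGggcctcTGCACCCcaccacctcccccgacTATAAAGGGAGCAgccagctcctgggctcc
MT4: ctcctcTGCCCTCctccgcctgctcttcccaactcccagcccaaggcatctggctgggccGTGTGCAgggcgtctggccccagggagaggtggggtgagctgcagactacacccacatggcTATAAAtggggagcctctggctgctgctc
The pattern TGCNCNC occurred 4 times in MT2A, 4 times in MT1X, 5 times in MT1H, 3 times in MT1B and 2 times in MT4. Over 15397 RefSeq promoters, 39.4% held it at least once in the same window, 2.51% at least 3 times and 0.513% at least 4 times. The number of matches did not order the members by level, since MT1H held the most and had a mean of 0.0586 TPM. TATAAA was present in MT2A, MT1X, MT1B and MT4, where it began 29 or 30 bases before the start, and in 6.50% of all promoters in this window. GGGCGG was present in all but MT4, and in 50.8% of all promoters. The ratio of observed to expected CpG over the printed bases was 0.961 for MT2A, 0.796 for MT1X, 0.623 for MT1H, 0.177 for MT1B and 0.189 for MT4. Thus the pair of abundant members had the highest CpG ratios of the 5, and the silent members the lowest.

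The identity genes of the line were mixed rather than purely mesenchymal. Of 20 genes of the epithelial-mesenchymal transition, 14 were detected, 70.0% against 57% of all rows, with a median of 30.8 TPM, and 3 were silent. MSN, the cortical actin linker moesin, had 701, 678 and 716 TPM. NT5E, the ectonucleotidase CD73, had 316, 324 and 303 TPM. S100A4, a calcium-binding protein of motile cells, had 153, 152 and 212 TPM, with replicate 3 above the others. Outside the naming rule and chosen after their values were seen, the transcription factors of the transition all had means below 10 TPM. SNAI2 had a mean of 8.79 TPM, ZEB1 4.43 TPM and ZEB2 4.25 TPM, each above the median of 3.59 TPM over all rows. SNAI1 lay at 0.614, 1.18 and 0.746 TPM. TWIST1 and TWIST2 were silent. CDH2, the neural cadherin often gained in mesenchymal cells, had 4 counts in each library, a mean of 0.0391 TPM.

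Luminal and epithelial genes were split. Of 25 such genes, 13 were detected, 52.0% against 57% of all rows, and 6 were silent. KRT18 and KRT8, partner keratins of simple epithelia, were the highest: KRT18 had 263, 254 and 282 TPM, and KRT8 had 204, 194 and 225 TPM. MLPH, a melanosome and vesicle linker found in luminal tumours, had 107, 78.8 and 82.5 TPM, and XBP1, a factor of the secretory pathway, had 78.6, 81.1 and 79.6 TPM. CDH1, which encodes E-cadherin, had no count in any library. GRHL2 and OVOL2, epithelial transcription factors, and TFF1 and TFF3, oestrogen-responsive secreted proteins, were also silent. GATA3, EPCAM and FOXA1 were detected at means of 2.37, 2.25 and 1.297 TPM, and ESRP1, an epithelial splicing regulator, had 0.0225 TPM. In bulk RNA, a low level in every cell and a higher level in a few cells cannot be told apart. CLDN4, a tight junction claudin, had 8.18 and 9.60 TPM in replicates 1 and 2 and 0.819 TPM in replicate 3.

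Basal keratins were missing. Of 16 basal and myoepithelial genes, 6 were detected, 37.5% against 57% of all rows, and the median was 0.0463 TPM. KRT5, KRT14, KRT6A, KRT6B and TRIM29 were silent, and TP63, the factor of basal cells, had a count in replicate 1 only. SFN, the epithelial member of the 14-3-3 proteins, was the highest of the list at 149, 151 and 153 TPM. MYLK, a myosin kinase, had a mean of 27.1 TPM, and FOXC1, a factor often high in basal-like tumours, 9.42 TPM.

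**Figure D2:**
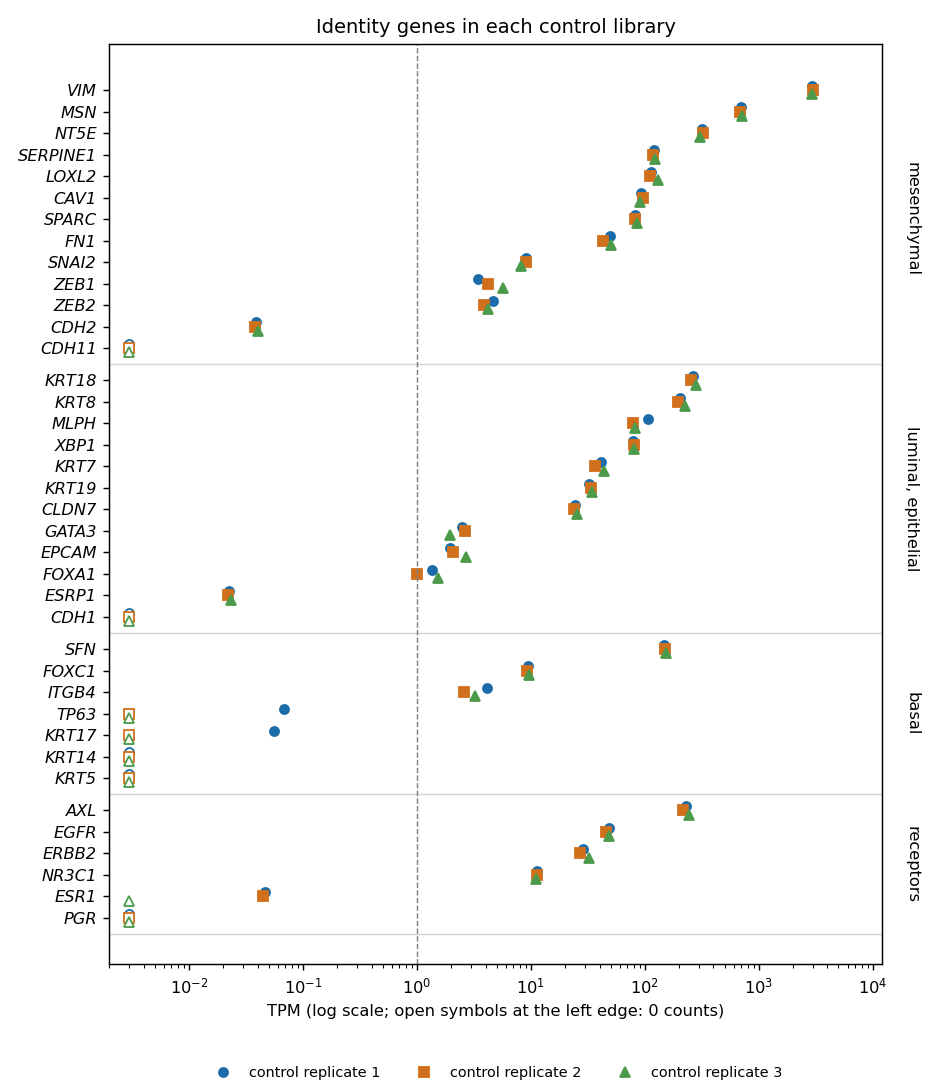
TPM of 38 identity genes (x axis, log scale) in each of the 3 control libraries, grouped as mesenchymal, luminal and epithelial, basal, and receptor genes. Open symbols at the left edge are libraries with no count. VIM lies near 2944 TPM, KRT18 and KRT8 lie above 190 TPM, and CDH11, CDH1, KRT14, KRT5 and PGR have no count in any library.

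The receptors that define the triple-negative class were at or near 0, with the exception of ERBB2. PGR, the progesterone receptor, was silent. ESR1, the oestrogen receptor alpha, had 6, 6 and 0 counts, or 0.0465, 0.0447 and 0 TPM. ERBB2 was present at 28.6, 27.0 and 32.3 TPM, below EGFR in each library, and ERBB3 had a mean of 2.82 TPM. Of the 15 hormone and ERBB receptors 9 were detected, 60.0%, close to the 57% of all rows, and RARG and RARA, receptors for retinoic acid, had means of 46.1 and 31.6 TPM.

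Among 48 receptor tyrosine kinases 21 were detected, 43.8% against 57% of all rows, and 8 were silent. AXL led, followed by EPHA2, an ephrin receptor, at 170, 155 and 173 TPM. FGFR1 had a mean of 71.8 TPM ± 4.79 (SD, n = 3) and MET, the receptor of hepatocyte growth factor, 51.2 TPM (SD over 3 libraries 6.86). Of 12 stem and progenitor surface genes, 5 were detected, 41.7% against 57% of all rows. Beside CD44, ITGA6, an integrin chain, had a mean of 76.9 TPM, PROCR, the endothelial protein C receptor, 56.2 TPM and ALDH1A3, a retinal dehydrogenase, 5.24 TPM. ABCG2, a drug exporter, had 2.16 TPM. CD24, whose low level beside CD44 is used to mark stem-like breast cancer cells, had 1.04, 0.975 and 0.876 TPM. LGR5 and ALDH1A2 had about 0.1 TPM, and ALDH1A1, PROM1, THY1 and NGFR were silent.

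Many housekeeping functions rested on 1 or a few copies of a gene family. Among 7 actins, ACTB had 2533, 2428 and 2643 TPM and ACTG1 787, 864 and 1080 TPM. The smooth muscle actin ACTA2 had 2.13 TPM and the skeletal ACTA1 0.283 TPM, while ACTC1, ACTG2 and ACTBL2 were silent. Actin and tubulin genes with their actin binders held 3.25% ± 0.061 (SD, n = 3) of TPM.

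TMSB4X, TMSB10 and PFN1, which hold actin monomers, had means of 12390, 3280 and 2681 TPM. CFL1, which severs filaments, had 827 TPM and its muscle copy CFL2 86.6 TPM, while DSTN had 199 TPM and PFN2 165 TPM. TMSB15B had 3.24 TPM and PFN4 0.158 TPM, and TMSB15A and PFN3 were silent. Of 17 tubulins, TUBB at 2764 TPM and TUBA1B at 1822 TPM led, and TUBB4B and TUBA1C followed at 735 and 562 TPM. TUBB4A and TUBA3C were silent. All 7 genes of the 14-3-3 adaptor proteins exceeded 100 TPM. YWHAZ and YWHAE led them at 881 and 510 TPM, YWHAQ, YWHAH and SFN had 275, 168 and 151 TPM, and YWHAG was lowest at 119 TPM. YWHAB had 245 and 222 TPM in replicates 1 and 2 and 129 TPM in replicate 3.

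Glycolytic genes held 2.12% ± 0.048 (SD, n = 3) of TPM. ENO1, the common enolase, had 4186, 4052 and 4319 TPM, while the neural ENO2 had 117 TPM and the muscle ENO3 32.0 TPM. ALDOA, PGAM1 and PGK1 had means of 1357, 957 and 466 TPM, and ALDOC had 53.9 TPM. The muscle PGAM2 and the testis PGK2 had less than 0.1 TPM each. PFKP led the phosphofructokinases at 395 TPM, before PFKL at 128 TPM and PFKM at 85.6 TPM.

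Pyruvate kinase was PKM at 1814, 1636 and 1670 TPM, and the liver PKLR had a single library above 0. Both lactate dehydrogenase chains were high, with LDHB at 975, 1062 and 867 TPM and LDHA at 789, 1065 and 828 TPM, and their ranges overlapped. LDHC, LDHAL6B and PDHA2 were silent, PDHA1 had 38.8 TPM and LDHAL6A 0.0945 TPM. HK1 and HK2, which trap glucose, had 279 and 38.5 TPM and HKDC1 3.92 TPM. The transporter genes SLC2A1 and SLC2A3 had 105 and 46.9 TPM and SLC2A4 0.395 TPM. SLC2A5 and HK3 had traces in 1 library each, and SLC2A2, of liver and pancreatic islets, was silent.

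Annexins, galectins and S100 proteins, which bind membranes, sugars or calcium, were each led by a single member. ANXA2 had a mean of 1865 TPM, ANXA5 702 TPM, ANXA1 543 TPM, ANXA6 298 TPM and ANXA7 159 TPM. ANXA3, ANXA11 and ANXA4 had 92.0, 84.0 and 44.2 TPM, ANXA10 and ANXA9 about 3 TPM, ANXA8 and ANXA8L1 about 0.1 TPM or less, and ANXA13 was silent. LGALS1 had 1825, 1739 and 1914 TPM, LGALS3 had 247 TPM and LGALS8 86.7 TPM. LGALS2, LGALS9 and LGALS4 had traces, and LGALS7, LGALS7B, LGALS12, LGALS13, LGALS14 and LGALS16 were silent. Of 20 S100 genes, S100A6 at 6286 TPM, S100A11 at 1989 TPM, S100A16 at 518 TPM and S100A10 at 350 TPM led, while S100A7, S100A8 and S100A9, of inflamed skin and myeloid cells, were silent.

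Of 20 peroxiredoxin, thioredoxin and related antioxidant genes, 19 were detected, 95% against 57% of all rows. TXN, thioredoxin, had 1259, 1263 and 1170 TPM. GPX4, which reduces lipid peroxides, had a mean of 861 TPM, GPX1 853 TPM and PRDX1 801 TPM. The respiratory chain showed the same division between common and tissue copies, with COX6A1 at 1332 TPM and the muscle COX6A2 silent, and with COX8A at 1189 TPM and COX8C at 0.0783 TPM. SLC25A5 and SLC25A6, the carriers of ADP and ATP over the inner membrane, had 697 and 408 TPM, and COX6B1 had 410 TPM.

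**Figure D3:**
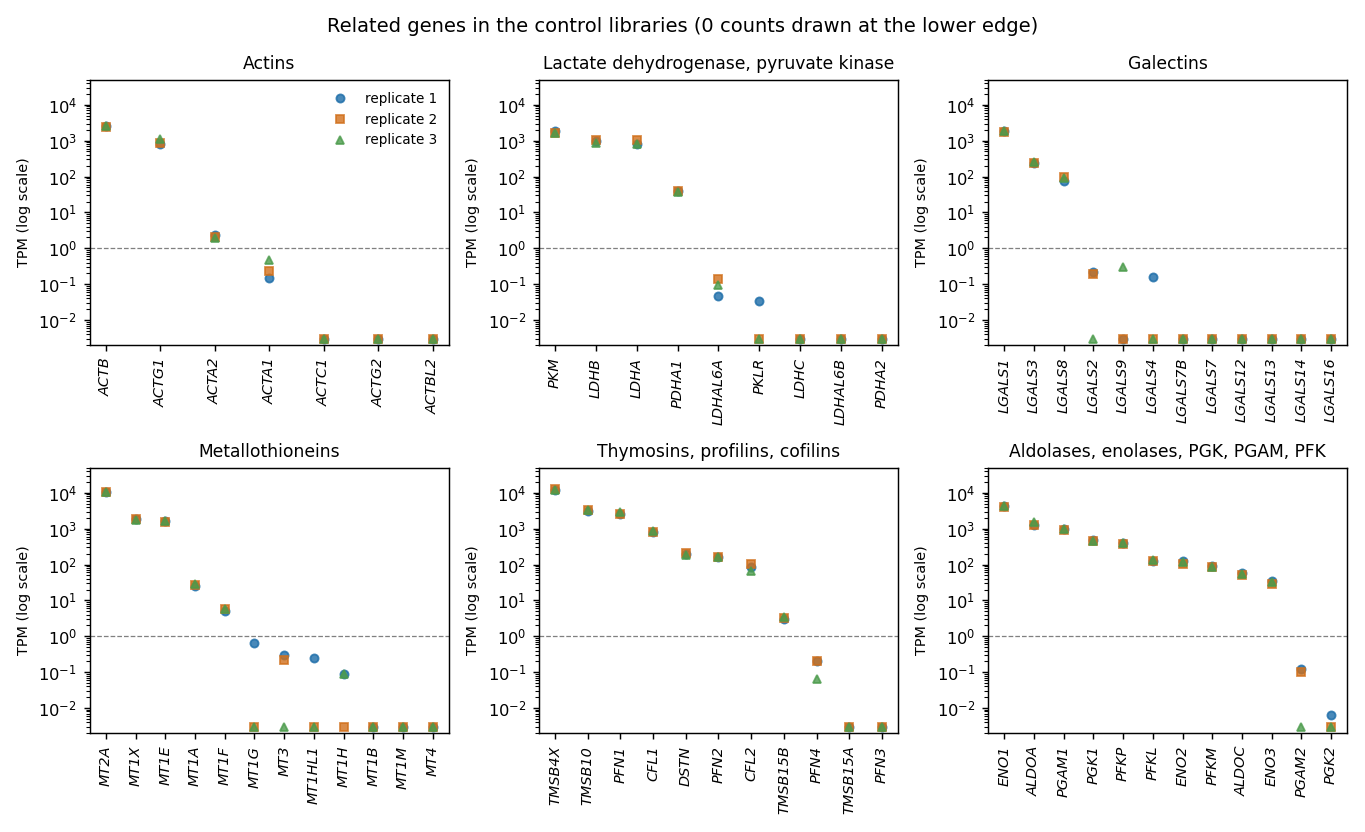
TPM (y axis, log scale) of members of 6 sets of related genes in the 3 control libraries, ordered by mean; libraries with no count are drawn at the lower edge and the dashed line marks 1 TPM. In each set 1 or a few members exceed 800 TPM. In every set except that of the aldolases, enolases and phosphoglycerate enzymes, other members have no count in any library.

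Secreted products included several at high levels. IL1B, the inflammatory cytokine interleukin 1 beta, had 1267, 1287 and 1315 TPM, the highest of 32 listed cytokine and growth factor genes. Of these 32 genes 21 were detected, 65.6% against 57% of all rows. MIF, a cytokine outside that list, had 1294, 1248 and 1369 TPM, and its range overlapped that of IL1B. CSF3, the granulocyte growth factor, had 170, 163 and 180 TPM. GDF15, a stress-induced factor, had a mean of 153 TPM and CXCL8, a neutrophil chemokine, 114 TPM. Among 39 interleukins, 9 were detected, 23.1% against 57%, and IL18, IL11 and IL6 followed IL1B at 81.1, 58.6 and 43.8 TPM. Of 44 chemokines, 7 were detected, 15.9% against 57%, and 26 were silent, with CXCL2, CXCL1 and CXCL3 at 51.5, 37.4 and 20.1 TPM behind CXCL8.

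Of 22 matrix-degrading enzymes and inhibitors 16 were detected, 72.7% against 57% of all rows. MMP1, the interstitial collagenase, had 1556, 1641 and 1502 TPM. The lysosomal proteases CTSD, CTSB and CTSL had means of 897, 699 and 449 TPM. Outside the naming rule, MMP14, a membrane-anchored protease, had 357 TPM, while MMP2 and MMP9, the gelatinases, each had a count in replicate 3 only.

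Of 26 integrins 13 were detected, 50% and near the 57% of all rows, led by ITGB1 at 731, 944 and 745 TPM and ITGA3 at 305, 287 and 321 TPM. ITGB5 and ITGA6 followed at means of 82.5 and 76.9 TPM. LAMB3, LAMC1 and LAMB2 led 12 laminins at 140, 95.9 and 53.2 TPM, and 8 of them were detected, 66.7% against 57% of all rows. LAMA5, LAMB1, LAMA3 and LAMA1 had 40.5, 39.0, 32.0 and 10.2 TPM, LAMA4 and LAMA2 stayed below 1 TPM, LAMB4 had a trace and LAMC3 was silent. Of 44 collagens 15 were detected, 34.1% against 57% of all rows, with COL13A1, a transmembrane collagen, at 195 TPM and COL6A2, COL4A2 and COL6A1 at 50.1, 33.6 and 26.4 TPM. Only 2 of 23 cadherins were detected, 8.70% against 57% of all rows. They were CDH24 at 18.7 TPM and CDH4 at 13.8 TPM, and 13 cadherins were silent.

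Genes of antigen presentation differed by class. Class I genes, which present peptides from within the cell, were detected for 9 of 10 members, 90% against 57% of all rows. HLA-B had 798, 783 and 827 TPM. HLA-E had a mean of 335 TPM, HLA-C 252 TPM and HLA-F 27.9 TPM, while HLA-G had 0.0440 TPM. TAPBP, TAP1 and TAP2, which load peptides, had 62.9, 53.1 and 33.9 TPM. B2M, the shared light chain, had 395, 181 and 533 TPM, and replicate 2 was far below the others.

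Of 13 class II genes, which present peptides taken up from outside, 2 were detected, 15.4% against 57% of all rows. HLA-DMA had 8.10, 10.3 and 11.5 TPM and HLA-DMB a mean of 1.52 TPM. CIITA, the class II activator, CD74 and HLA-DRA had 0.194, 0.466 and 0.631 TPM. HLA-DOB, HLA-DPA1, HLA-DRB1 and HLA-DPB1 had 0.392, 0.241, 0.103 and 0.0778 TPM, and HLA-DRB5, HLA-DQB1, HLA-DQA1 and HLA-DOA were silent. HLA genes are similar and polymorphic, and reads may be lost or exchanged between them.

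Markers of other cell types were at or near 0. Of 20 immune markers 1 was detected, 5% against 57% of all rows. It was CD68, a lysosomal protein that many non-immune cells also make, at 258, 245 and 254 TPM. CD14, CD79A and CD8A had means of 1.11, 0.653 and 0.464 TPM. PTPRC and CD3E, which define leukocytes and T cells, were silent. Of 17 fibroblast, endothelial and fat cell markers 2 were detected, 11.8% against 57% of all rows. They were PECAM1 at 1.85 TPM and COL1A1 at 1.57 TPM, while COL1A2, DCN, LUM and CDH5 were silent. Of 21 products of blood, liver, muscle and neurons 2 were detected, 9.52% against 57% of all rows. They were MBP and SERPINA1, at 19.0 and 1.296 TPM. HBA1 and HBA2, the alpha globins, were silent.

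Proliferation genes were nearly all on, with 27 of 28 detected, 96.4% against 57% of all rows, and a median of 101.5 TPM. STMN1, which destabilises microtubules, had 408, 312 and 297 TPM, with replicate 1 the highest. PCNA, the sliding clamp of DNA replication, had a mean of 292 TPM, UBE2C, a mitotic ubiquitin enzyme, 275 TPM and TYMS, thymidylate synthase, 242 TPM. All 78 mitochondrial ribosomal proteins and all 34 aminoacyl-tRNA synthetases were detected, against 57% of all rows. So were 47 of 48 nuclear complex I genes, 47 of 49 proteasome subunits and 50 of 54 translation initiation factors. Over the 71 lists and families, the share of members detected lay above that of all rows for 30, and 8 had no member detected.

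Families of other lineages were mostly silent. None of 396 olfactory receptors was detected, against 57% of all rows, and 356 had no count. None of 94 keratin-associated proteins, 43 defensins or 18 late cornified envelope genes was detected, and 73, 41 and 15 of them had no count. All 19 UDP glucuronosyltransferases, which conjugate drugs and bilirubin, had no count. Against 22.2% of all rows, 39 of 55 keratins were silent.

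Among 82 cancer-testis genes, which are normally transcribed in germ cells, 2 were detected, 2.44% against 57% of all rows. They were XAGE1A and XAGE1B, at means of 472 and 463 TPM. Those rows are near-identical copies and cannot be told apart. SPANXB1, a spermatid gene outside that list and singled out after its values were seen, had 1737, 1883 and 1663 TPM and stood among the 112 genes above 1000 TPM. It too belongs to a family of close copies. HMGA1, an architectural chromatin protein of embryonic and tumour cells that was likewise singled out after its values were seen, had 3218, 3065 and 3372 TPM.

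The HOX genes, which set position along the body axis, differed between their 4 clusters. Over the clusters 7 of 39 were detected, 17.9% against 57% of all rows. In cluster A, 10 of 11 genes were silent and HOXA13 had a mean of 0.255 TPM. In cluster B, 4 of 10 genes were detected, with HOXB9 at 8.27, 6.49 and 8.43 TPM and HOXB3 at 4.17, 3.77 and 3.99 TPM. In cluster D, 3 of 9 were detected, with HOXD4 at 3.87 TPM and HOXD3 at 2.96 TPM. No gene of cluster C was detected, and its highest member reached 0.913 TPM. Summed over members, the clusters had 0.255 TPM for A, 18.5 TPM for B, 1.97 TPM for C and 9.73 TPM for D.

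Silent rows lay in runs along the chromosomes, of which 16 held 20 or more neighbours. The longest runs covered the immunoglobulin heavy chain segments on chromosome 14 with 88 rows, the T cell receptor alpha and delta segments with 57 and 57 rows, and the immunoglobulin kappa segments on chromosome 2 with 49 rows. A run of 44 rows on chromosome 1 held 42 olfactory receptors. Another of 31 rows on the same chromosome held 26 genes with PRAMEF or HNRNPCL symbols.

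A run on chromosome 9 held genes of a different kind. From HACD4 to IZUMO3, chr9:20999515-24545946 in GRCh38, 25 neighbouring rows had no count over 3.55 Mb. Of these, 16 were interferon genes, which most cells transcribe only after infection. The other 9 rows included MTAP, which salvages methylthioadenosine, CDKN2A and CDKN2B, inhibitors of the kinases CDK4 and CDK6, and KLHL9, an adaptor of a ubiquitin ligase. MTAP lies at chr9:21802543-21937651 and CDKN2A at chr9:21967753-21995301, and both had 0 counts in each library. FOCAD, the last row before the run, had 80, 58 and 53 counts, and TUSC1, the first row after it, had 367, 447 and 372 counts. RPS6 and PLAA on either side had more than 1000 counts in each library. DNA was not measured, and whether the genes of the run were present but not transcribed or absent was not tested.

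**Figure D4:**
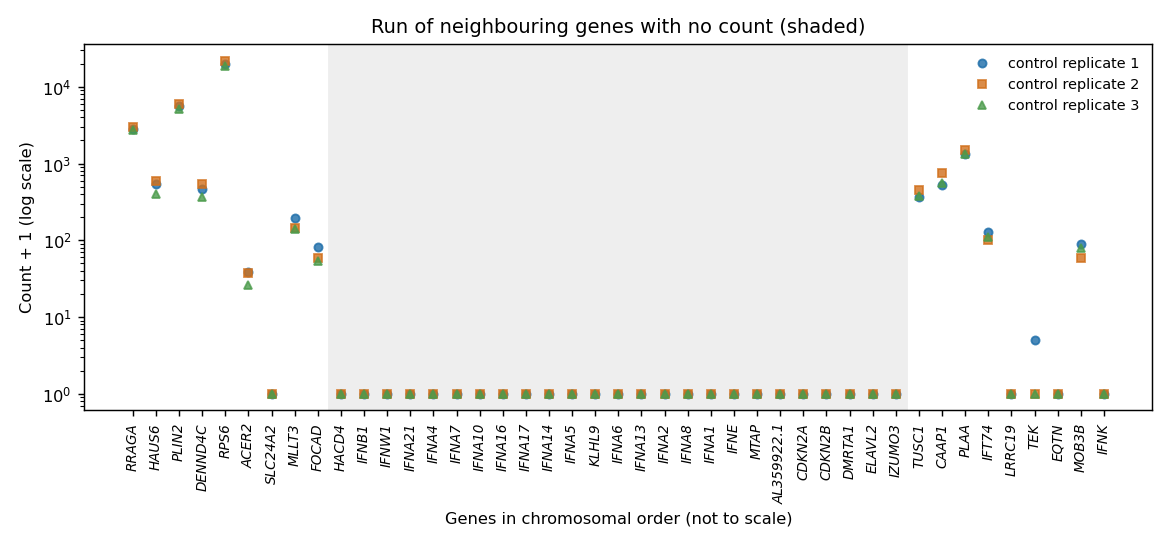
Count plus 1 (y axis, log scale) in the 3 control libraries for 43 neighbouring rows of chromosome 9 in order of position (x axis, not to scale), with the 25 silent rows shaded. Every shaded row has no count in any library, while FOCAD before it has 53 to 80 counts and TUSC1 after it 367 to 447.

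The libraries were close to each other for most genes. Over the 7826 genes with a mean of 10 TPM or more, the median coefficient of variation was 6.10% of TPM. The median absolute difference between libraries was 0.10, 0.08 and 0.13 on the log2 scale for the pairs 1 and 2, 1 and 3, and 2 and 3. The biological coefficient of variation, the spread between libraries beyond counting error, was 0.132 by edgeR's common dispersion over 12963 genes. The square root of DESeq2's median gene-wise dispersion over the same genes was 0.0509. A coefficient of variation above 25% was found for 370 genes and above 50% for 49.

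The largest spreads included genes whose counts and TPM did not move together. TXNL1, a thioredoxin-like protein, had 1264, 1197 and 1238 counts but 9.83, 8.17 and 32.2 TPM. For 126 genes the transcript length implied by counts and TPM differed over 1.5-fold between libraries, and 74 of them were among the 370 most spread. MGAT5, a glycosyltransferase, differed in both measures, with 1271, 1150 and 4354 counts and 6.50, 5.86 and 23.2 TPM. ST6GAL1, a sialyltransferase, had 7.23, 23.7 and 7.16 TPM, and DAG1, which encodes dystroglycan, 21.6, 57.9 and 16.2 TPM, both with replicate 2 highest. JPT2, which overlaps another row on its strand, had 20.998, 58.5 and 18.2 TPM, and ZNF672 had 20.9, 4.78 and 4.62 TPM. The other 4 of the 10 most spread rows, AC104109.3, AC005943.1, AC138811.2 and TMEM256-PLSCR3, each overlap other rows on the same strand.

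Genes commonly used as references varied among themselves. All 14 were detected. PGK1 had 469, 464 and 466 TPM and HPRT1 89.7, 90.3 and 86.6 TPM, both within 5% of their means. B2M had 13578, 5582 and 17569 counts, so its spread was present before division by length. Outside these 14 reference genes, VEGFA, the angiogenic growth factor, had 67.2, 29.4 and 94.7 TPM. HSP90AA1, the inducible HSP90 chaperone and also not of the 14, had 420, 532 and 309 TPM.

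Libraries also differed with the base composition of transcripts. Among the 1218 genes poorest in GC, 1 of 10 equal groups by GC content, the median deviation from the mean of the 3 libraries was 0.03, 0.07 and -0.10 on the log2 CPM scale for replicates 1, 2 and 3. Among the 1218 genes richest in GC they were -0.00, -0.06 and 0.07. Replicates 2 and 3 therefore leaned in opposite directions, and their contrast between these extreme groups was 0.29. With replicate 2 left out, the contrast between replicates 1 and 3 was 0.19. With replicate 3 left out, that between replicates 1 and 2 was 0.11. The part of GC content in the spread of single genes was not tested.

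Silent and expressed genes differed in the sequence at their 5′ ends. In the first 300 bases of GENCODE transcripts, the ratio of observed to expected CpG had a median of 0.365 for silent genes and 0.491 for genes below 1 TPM. It was 0.711 from 1 to 10 TPM, 0.764 from 10 to 100 TPM, 0.762 from 100 to 1000 TPM and 0.766 above that. The ratio thus rose up to about 10 TPM and was level over the higher classes. A ratio above 0.6, a customary limit for CpG islands, was found for 27.8% of silent genes and 71.8% of genes at 1000 TPM or more. For silent genes these values rest on 3961 of the 4500 silent rows, and not all rows entered the other classes.

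The TATA box motif TATAAA, searched on both strands of RefSeq promoters of 300 bases, followed another pattern. It was held by 6.11% of promoters from 1 to 10 TPM, 4.15% from 10 to 100 TPM, 7.03% from 100 to 1000 TPM and 17.3% at 1000 TPM or more. Over all promoters, those of lower classes included, the share was 9.67%. The highest class rests on 14 of 81 promoters, among them MT2A, MT1X, PPIA, ANXA2 and TXN. The 95% confidence interval of its share was wide, from 9.78% to 27.3%. The promoter search covered 3858 silent genes and 3785 genes below 1 TPM, fewer than the table holds. Of these, 76.8% and 73.9% had a promoter, under the 80% required here, so a comparison with those classes is void. Among their promoters that were available, 20.7% and 13.3% held the motif. GGGCGG was held by 68.4%, 73.5%, 73.0% and 66.7% of the promoters of these 4 classes. These shares describe letters in a window and not binding.

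**Figure D5:**
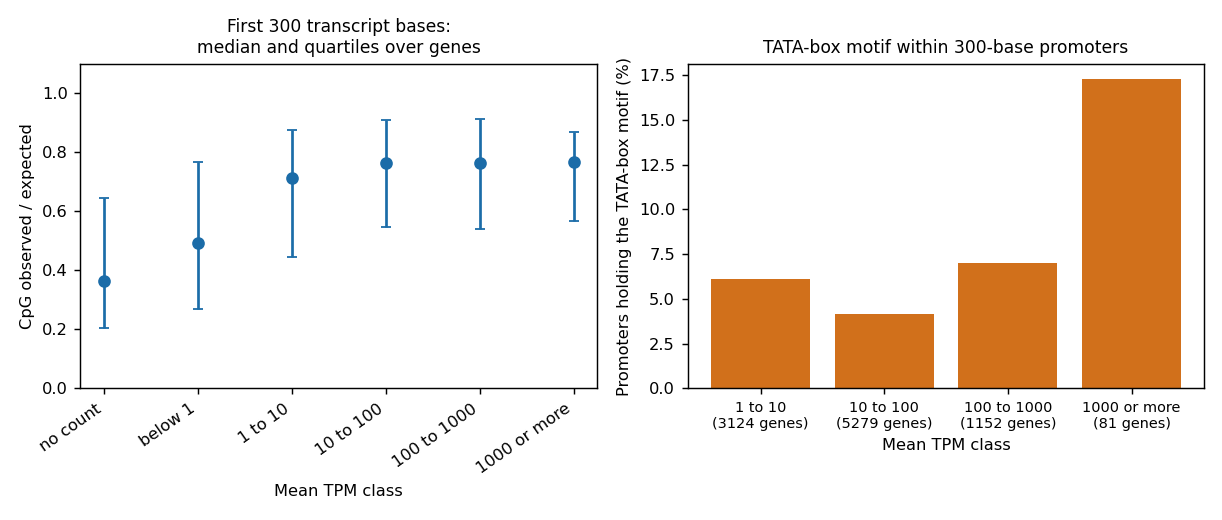
Left, median and quartiles over genes of the observed to expected CpG ratio in the first 300 transcript bases (y axis) by class of mean TPM (x axis). Right, the share of promoters with the TATA box motif (y axis, %) by class, with the number of promoters below each bar. The median CpG ratio rises from 0.365 in silent genes to 0.764 at 10 to 100 TPM, and of the 4 classes drawn on the right the motif share is highest, 17.3%, at 1000 TPM or more; classes below 1 TPM are not drawn.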

How the data were processed

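RNA from the 3 control samples was made into libraries with an mRNA kit, per the labels' protocols. The authors deposited 1 table with a count, a TPM and an FPKM value per gene and library, per the file headers. The deposited counts were whole numbers without normalization, and the deposited TPM values summed to 999953 to 999968 per library. The deposited FPKM values entered 1 alternative threshold only. The submitters' processing notes name GRCh38, StringTie 1.3.3b, HISAT2 2.1.0, Trimmomatic and FastQC 0.11.2. Not given in the sources used here are the annotation, the counting program, the strand setting and whether mates were counted apart, so overlapping and antisense genes cannot be told apart.

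Of 20261 rows, 1 incomplete row was left out. Of the 18 per-sample columns, the 9 of the control libraries were used. Levels were averaged as mean ± SD over 3 libraries, and no test was made because 1 group was described. Dispersion was estimated in R 4.3.3 with edgeR 4.0.16, after a minimum count of 10 by filterByExpr and TMM scaling, and with DESeq2 1.42.0. The dispersion step was tested on simulated data. GC content and 5′ end CpG came from GENCODE release 29, which held 20221 of the rows, and promoters from RefSeq, matched by symbol, chromosome and strand for 15465 rows.

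The members, lists and thresholds were chosen with earlier results of these data known. Family patterns were tidied after their members were seen (interleukins, S100 proteins, integrins, solute carriers, cancer-testis genes, kinesins, heat shock genes, PRAMEF and USP17L). Named genes were the 25 highest, the markers, all members of lists of up to 13 genes, the 4 highest members and defining silent members of longer lists, the 10 most spread genes at 10 TPM or more and the longest silent runs. Other genes named were chosen after their values were seen. A few genes that the rule names are not reported here.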

Additional observations from a re-analysis of the deposited data

How the results depend on the processing

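The number of detected genes was 11555, and it lay between 10771 and 12166 with thresholds of 0.5 or 2 TPM, 1 FPKM or 1 CPM and between 11612 and 11645 with a library left out. The number of silent genes was 4500, or 5264 when up to 3 counts were allowed, and 4798 to 4825 over 2 libraries. The share of TPM in the 100 most abundant genes moved from 41.6% to 32.4% without mitochondrial-genome genes and to 25.8% as a share of counts. Leaving out a library gave 41.3% to 41.8%. The common biological coefficient of variation moved from 0.132 to 0.142 with no filter on low counts and to 0.0509 as the square root of DESeq2's median gene-wise dispersion, an alternative chosen after seeing the data. It was 0.127 to 0.143 with a library left out. The GC contrast was 0.29, and between the remaining libraries it was 0.11 to 0.28 with a library left out, 0.11 without replicate 3. Ranked by CPM, 16 of the 25 highest genes were kept. Of 213 list counts under other thresholds or units, 12 lay outside 1.5 times the reported count, 5 at 0.5 TPM, 5 at 2 TPM and 2 at 1 CPM. The cause of these shifts was not tested, apart from the smaller or larger sets of genes and libraries that the settings use. No paired analysis was possible because no groups were compared.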

Other observations

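Small counts in the control libraries were mostly even. Of 4913 values from 1 to 10 counts, 3489 were even, or 71.0%. The share was 51.3% from 11 to 100 counts and 49.3% above that and up to 1000 counts. The low counts of ESR1 (6, 6 and 0) and CDH2 (4, 4 and 4) were all even. The floor of 3 counts treats each count as an independent fragment, and whether mates of a pair were counted apart was not tested.

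Protein-coding rows were not silent at the same rate on every chromosome. On the X chromosome 32.1% of 838 such rows had no count and on chromosome 21 33.0% of 230. Over the table, 4038 of 19719 protein-coding rows were silent. On chromosome 16, which holds the metallothionein cluster, 14.9% of 852 protein-coding rows were silent and 65.8% were detected. The protein-coding rows of chromosome 19 held 10.3% of TPM, the most of any nuclear chromosome, with FTL among them.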
